A study of Bos taurus
Mus musculus with 10 samples.

Results

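Described here is the response of mouse embryonic fibroblasts, used as feeder cells under bovine embryonic stem cells, to 1 day without the tankyrase inhibitor IWR-1. The genes were those of the study's mouse expression table, 31349 NCBI mouse gene IDs of 58939 gene entries in the mouse and bovine tables together, and all 10 libraries of the series were used. The feeders under stem cell lines 1, 2, 4, 8 and 11 kept in medium without IWR-1 were set against the feeders under the same 5 lines kept in medium with it, paired by line number. The mouse table gives IDs with no names, and no mouse name table was used here; symbols were assigned from memory of NCBI gene IDs, so a wrong one would give a gene another gene's values. Of the 93 genes that the naming rule picked, 58 have IDs that occur in a set of mouse Reactome pathways, and none of the narrowest pathways of these genes, read by eye, went against the symbol; the other 35 were not checked.

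IWR-1 inhibits the tankyrases, enzymes that mark Axin for degradation. With tankyrase blocked, Axin is stabilised, the destruction complex that removes beta-catenin works more strongly, and Wnt signals through beta-catenin are dampened; tankyrases also act on angiomotin proteins, which hold back the Hippo effectors YAP and TAZ. Feeder fibroblasts supply stem cells with extracellular matrix and secreted factors. Mitomycin C stops their division by crosslinking DNA, so that they support the culture without overgrowing it.

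Each well held wild-type bovine embryonic stem cells on fibroblasts from E13.5 fetuses of CD-1 mice that had been given mitomycin C for 2 h. The labels date the blastocysts of the bovine lines to day 7.5. Before the experiment all cultures grew in mTeSR1 medium with 2.5 µM IWR-1. On day 0 the wells were rinsed, and each of the 5 lines received complete medium with 2.5 µM IWR-1 or medium lacking it, for 1 day, so that each group had 5 wells and each line gave 1 well per medium. The number of a feeder sample is thus the number of the bovine line grown on it; whether the wells of different lines held separate feeder preparations is not stated in the labels. Because both species shared a well, an effect of the medium on the feeders themselves and one passed on by the stem cells cannot be told apart.

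Values are scaled reads: the deposited entries were whole read numbers divided by 1 factor per library. The mouse table held 17101894 to 35223039 reads per library. Mouse reads made up 23.4% to 42.3% of all reads assigned to genes with IWR-1 and 21.2% to 41.4% without it. This share was lower without IWR-1 in each of the 5 lines, with a difference of -0.92 percentage points in line 4 and of -2.26 to -6.63 in the other lines. The mean difference was -3.64 percentage points (n = 5 pairs), and the exact two-sided sign-flip test gave p = 0.0625, the smallest value that 5 pairs allow. In such bulk libraries, fewer feeder cells, less RNA per feeder cell, and more bovine cells or bovine RNA cannot be told apart.

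The feeder libraries carried the genes that define fibroblasts. Of 26 fibroblast markers, 25 passed the filter on low values, among them Col1a1 with means of 160798 and 206344 with and without IWR-1, and 3 were called higher and 1 lower (1 and 0 without line 1 or 4, 1 and 1 without line 11). Skeletal muscle markers such as Myod1, Myog and Ckm had group means of at most 1.33, and 3 of 15 passed the filter. The pluripotency genes Nanog and Sall4, with bovine means of 1550 and 15839 with IWR-1, had means of 1.68 and 2.19 there in the mouse table. Other stem cell markers read more in the feeder libraries with IWR-1, such as Otx2 (mean 720), Zic2 (155) and Tfap2c (140). Of 23 such markers with mouse values, 8 passed the filter, and 1 was called higher and 0 lower. The markers summed to 852 to 2160 with IWR-1 and 969 to 2427 without it, higher in each of the 5 lines. The labels do not say how reads that fit both genomes were handled. For 14 stem cell markers with a bovine mean of at least 1000, the reads in the mouse table amounted to a median of 0.139% of those in the bovine table. That share was under 1% for 13 of them and 5.98% for Otx2. Markers with a lower bovine mean, such as Foxd3 (14.9%) and Tfap2c (713%), were left out. The share of mouse to bovine reads is quoted below for some of the genes. Among the genes picked by the naming rule with a tested bovine counterpart, it ranged from 0.897% (median 26.3%) for those that rose and from 1.26% (median 411%) for those that fell.

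Without IWR-1, 340 of 15871 feeder genes tested rose (2.14%) and 325 fell (2.05%), together 4.19% (limma on log2(value + 1) with the line as a block, Benjamini-Hochberg adjusted p under 0.05). A gene was tested where 5 or more libraries read 10 or more. The shares of 2.14% and 2.05% are the background for the counts of called genes given for each gene list. The changes were moderate in size: the median was 0.58 on the log2 scale among the genes that rose and -0.49 among those that fell, and 36 genes in each direction reached 2-fold. All 5 lines moved the same way for 328 of the 340 and 315 of the 325. Such agreement is partly built into the calls, which came from the same within-line differences, so it adds no separate evidence. Of all tested genes, 7.83% were higher in all 5 lines and 7.83% lower in all 5. The lines started from different levels, and the libraries of the groups did not overlap for 19 of the 340 and 21 of the 325. Across all tested genes, 0.258% were higher without overlap and 0.296% lower.

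Those calls depend on the pairing, on 1 covariate, on the intensity trend of the limma fit and on the filter on low values. Without the trend 59 genes rose and 24 fell, and without the filter 169 rose and 160 fell. A fit without the line as a block called 0 genes (584 at an unadjusted p under 0.05). With the mouse share of reads as an added covariate, limma also called 0 genes (687 at an unadjusted p under 0.05). In that fit all 340 and all 325 genes kept their direction, the median changes were 0.56 and -0.48, and the median standard error rose from 0.10 to 0.23 among the genes that rose. Single genes moved more. Of the 82 called genes picked by the naming rule, 8 had a change smaller by more than 1.5 times in that fit (Ccn5, Ccn4 and Adamts5 among the rises, and Cxcl2, Stfa3, Mt2, Dusp1 and Nefm among the falls) and 5 a larger one (Clec4e, Lcn2, Dmp1, Tead4 and Nt5e). Of these, Nefm moved to -0.077 and Dusp1 to -0.18. Outside the rule, Cxcl1 moved to -0.40 and Lif to -0.24. The part of the mouse share in the changes was not otherwise tested. Of the 340 and 325 genes, 111 and 122 stayed called whichever line was left out. Without line 1, 4 or 11 the counts were 156, 137 and 136 higher and 164, 146 and 133 lower.

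**Figure D1:**
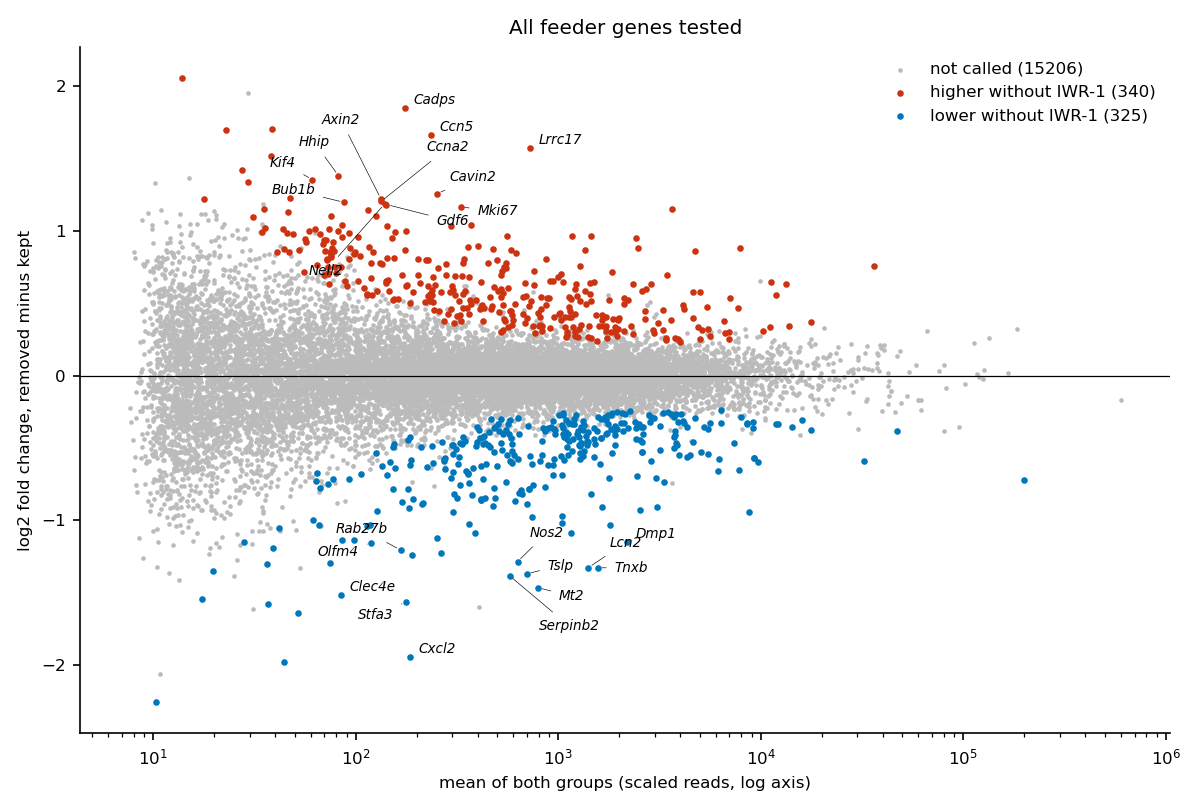
Log2 fold change of every tested feeder gene (IWR-1 removed minus kept) against the mean of both groups in scaled reads on a log axis; each point is 1 gene, red for the 340 called higher and blue for the 325 called lower, with labels on the 12 genes per direction of largest change among called, named genes that moved alike in all 5 lines and averaged at least 50. Called genes lie on both sides of 0, and most sit within 1 log2 unit of 0.

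Several genes that beta-catenin and its TCF/LEF partners switch on rose. Of 25 tested Wnt target genes, 7 rose and none fell, with a median change of 0.25 on the log2 scale against -0.00041 over all tested genes. Axin2, which encodes a scaffold of the destruction complex and is a standard feedback target of the pathway, read 74.4, 37.3, 209.7, 29.9 and 18.7 scaled reads with IWR-1 in lines 1, 2, 4, 8 and 11. Without IWR-1 the same lines read 174, 98.5, 591, 47.2 and 50.1. Line 4 was highest in both media and the groups overlapped, yet every line rose, by 1.22 ± 0.16 (SE, n = 5 pairs; adjusted p = 0.0018, limma) on the log2 scale. The bovine gene AXIN2 was also highest in line 4, and reads for mouse Axin2 amounted to 15.2% of the bovine reads.

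Apcdd1, a membrane-bound inhibitor of Wnt signalling that is itself a target of the pathway, rose in each line. It read 1786, 1881, 3395, 1872 and 1978 with IWR-1 and 3865, 4108, 9892, 3309 and 4369 without it, in the same line order. Only line 4 with IWR-1 reached the lowest values of the wells without it. The change was 1.15 ± 0.087 (SE, n = 5 pairs; adjusted p = 7.8e-05, limma) on the log2 scale, with a range of 0.82 to 1.54 over the lines. Bovine APCDD1 changed by 0.14 ± 0.076 (adjusted p = 0.63, limma), and the mouse table held 423% of its reads.

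A pair of secreted matricellular proteins first described as Wnt-induced had large changes. Ccn5, formerly Wisp2, read 98, 99.3, 263, 52.6 and 31.6 with IWR-1 and 111, 307, 966, 207 and 210.1 without it. Line 1 moved little and line 11 most, and the mean change was 1.66 ± 0.26 (SE, n = 5 pairs; adjusted p = 0.0042, limma). With the mouse share of reads as a covariate it was 0.75 ± 0.49. Ccn4, formerly Wisp1, read 1364, 3274, 4661, 2164 and 4439 with IWR-1 and 2169.5, 7261, 8195, 2839 and 10674 without it. Its rise was 0.86 ± 0.11 (SE, n = 5 pairs; adjusted p = 0.0012, limma), again in 5 of 5 lines with overlapping groups. Nkd1, an inhibitor of Dishevelled induced by the pathway, went from 13.8 to 48.2 to a range of 30.4 to 90.1, a change of 1.23 ± 0.24 (SE, n = 5 pairs; adjusted p = 0.013, limma); without line 1 it was no longer called. Adamts5, a protease that cleaves aggrecan, rose by 0.89 ± 0.11, and the receptor gene Fzd7 by 0.40 ± 0.075, which was not called without line 11.

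Not every target on the list moved. Lef1, a transcription factor that binds beta-catenin, ranged over 91.3 to 183 with IWR-1 and 86.1 to 182 without it, a difference of -0.049 ± 0.13 (adjusted p = 0.91, limma). Ccnd1, the cyclin D1 gene, differed by 0.09 ± 0.073 (adjusted p = 0.64, limma), whereas bovine CCND1 rose by 1.15 ± 0.12 (adjusted p = 0.0027, limma). Notum, a secreted enzyme that inactivates Wnt proteins, was higher in 5 of 5 lines by 0.36 ± 0.15, but the adjusted p was 0.26 (limma). The difference between species was not tested.

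Among Wnt ligands, receptors and secreted modulators, 6 of 38 rose and none fell, with a median of 0.086. The extracellular modulators Dkk2 and Sfrp2 rose by 0.58 ± 0.059 (adjusted p = 0.00047) and 0.88 ± 0.10 (adjusted p = 0.00062, limma). Dkk3, a member of the Dickkopf family, rose by 0.52 ± 0.061, from a range of 699 to 1385 to 1024 to 2028. Fzd2, a Frizzled receptor, read 1423, 1261, 1382, 1574 and 1409.6 with IWR-1 and 1650.2, 1754, 1999, 2009 and 2003 without it, and the groups did not overlap (0.258% of tested genes were higher in this way). The change of Fzd2 was 0.42 ± 0.067 (SE, n = 5 pairs; adjusted p = 0.0046, limma). Ror2, a receptor for Wnt5a, and Wnt5a itself rose by 0.43 ± 0.076 and 0.30 ± 0.068; the first was not called without line 11, and the second not without line 1, 4 or 11.

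Of 22 components of the destruction complex and tankyrases, 0 were called by limma, edgeR or DESeq2, and 2 had an unadjusted p under 0.05 (limma); 4.19% of all tested genes were called. Of the 22, 11 were positive and 11 negative, and the median was -0.0034. Tnks, which encodes a target of IWR-1, averaged 2932 with the inhibitor and 2932 without it, a difference of -0.026 ± 0.11 (adjusted p = 0.95, limma). Ctnnb1, the beta-catenin gene, was lower in 5 of 5 lines, by 0.16 ± 0.062 on the log2 scale, and did not pass the test (adjusted p = 0.2, limma).

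**Figure D2:**
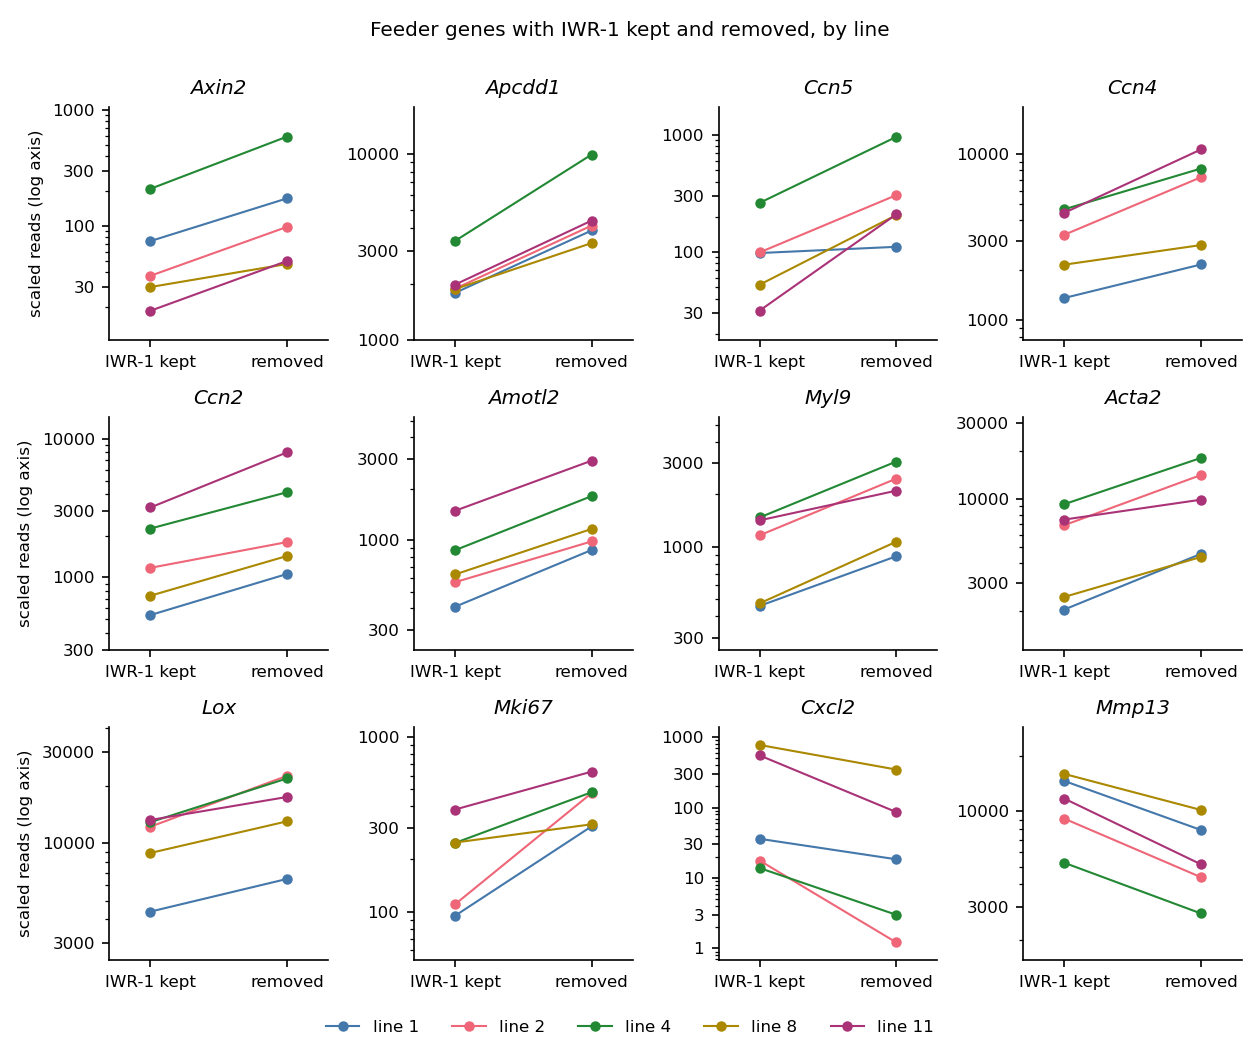
Scaled reads (log axes) of 12 feeder genes in wells with IWR-1 kept and removed; each line joins the 2 wells of 1 stem cell line, coloured by line. For all 12 genes every line moves the same way, while the lines start from different levels, as for Cxcl2 between 13.9 and 776.

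Several genes that YAP and TAZ induce through TEAD factors rose. Of 29 tested YAP/TAZ target genes, 6 rose and 2 fell (median 0.15), and of 21 Hippo pathway components 3 rose and 1 fell (median 0.0029). Leaving out line 1, 4 or 11 gave 1 Hippo component called higher in each case. Without line 1, 2, 4, 8 or 11 the YAP/TAZ targets called higher numbered 5, 6, 5, 10 and 4. Those called lower numbered 1, 2, 1, 3 and 2 in the same order. Ccn2, the connective tissue growth factor gene and a widely used YAP readout, read 535, 1173, 2254, 738 and 3200.0 with IWR-1 and 1059.5, 1800.5, 4125, 1429 and 8003 without it. Line 11 was highest and line 1 lowest in both media, and the rise was 0.95 ± 0.087 (SE, n = 5 pairs; adjusted p = 0.00027, limma). Ccn1, a relative of Ccn2 with the same use, rose by 0.71 ± 0.10 (SE, n = 5 pairs; adjusted p = 0.0018, limma).

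Amotl2, an angiomotin that binds YAP and is itself induced by it, read 409, 569, 876, 632 and 1489 with IWR-1 and 879, 987, 1815, 1167 and 2925 without it. The increase was close to 1.95-fold and similar in all lines, at 0.96 ± 0.07 (SE, n = 5 pairs; adjusted p = 6.9e-05, limma), with mouse reads at 14.4% of the bovine ones. Ankrd1, a nuclear ankyrin repeat protein and another YAP target, rose by 0.89 ± 0.12 (SE, n = 5 pairs; adjusted p = 0.0018, limma), from a range of 51.8 to 625 to one of 129 to 1333. Vgll3, a cofactor of TEAD proteins, rose by 0.70 ± 0.072 (adjusted p = 0.00047, limma).

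Smaller rises were seen for Ajuba, a LIM protein that restrains the LATS kinases, at 0.49 ± 0.084, and for Lats2, at 0.31 ± 0.069. Ajuba was not called without line 11, and Lats2 not without line 1, 4 or 11. Wwc2, of the Kibra family upstream of LATS, rose by 0.30 ± 0.072 and was not called without line 1, 2, 4 or 11. The factors themselves differed little: Yap1 by 0.093 ± 0.066 (adjusted p = 0.58, limma), from a mean of 4827 to 5159. Tead4 fell by 0.69 ± 0.17 but was not called without line 1, 4, 8 or 11. Areg, the amphiregulin gene, is a listed YAP target that fell instead, from 176 to 1004 to 82.3 to 708, by 0.85 ± 0.10 (adjusted p = 0.0012, limma). The other member that fell, Nt5e, was not called without line 1 or 4.

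Contractile genes and targets of SRF and its actin-regulated partners MRTF showed 12 rises and 2 falls among 42 tested, with a median of 0.20, and 20 were higher in all 5 lines. Myl9, the regulatory light chain of smooth muscle myosin, read 457, 1162, 1470.4, 473 and 1415 with IWR-1 and 881, 2455, 3076, 1067 and 2094 without it. The change was 0.96 ± 0.086 (SE, n = 5 pairs; adjusted p = 0.00022, limma). Acta2, the smooth muscle actin gene and a marker of myofibroblasts, read 2047, 6876, 9299, 2453 and 7454 with IWR-1 and 4556, 14136, 18074, 4357 and 9918 without it. Lines 1 and 8 were lowest in both media and the groups overlapped, but Acta2 rose in every line, by 0.88 ± 0.093 (SE, n = 5 pairs; adjusted p = 0.00058, limma).

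The calponins, which bind actin, moved alike: Cnn1 rose by 1.03 ± 0.15 (adjusted p = 0.003) and Cnn2 by 0.70 ± 0.081 (adjusted p = 0.00083, limma). The smooth muscle genes Myh11 and Lmod1 rose by 0.99 ± 0.16 and 0.95 ± 0.17. Itga5, the fibronectin receptor subunit, fell by 0.37 ± 0.061, and Tagln2 fell by 0.33 ± 0.069. Tagln, the transgelin gene, read only 3.01 to 6.46 with IWR-1 and 6.87 to 18.6 without it, and was not tested for that reason; its reads were 0.0665% of those of bovine TAGLN. Without line 1, 4 or 11, 7, 7 and 8 of the contractile genes were called higher.

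More collagen and other matrix genes were called higher than lower, and more proteases lower than higher. Among 22 collagen genes, 6 rose and 1 fell (median 0.22), and among 40 other matrix genes 8 rose and 1 fell (median 0.12). Summed over the collagens, each of the 5 lines read more once the inhibitor was removed, 1.02 to 1.296 times the level with it. That of the other matrix genes was higher in line 2 alone, by a factor of 1.06, and stood at 0.81 to 0.99 of the level with IWR-1 in the other lines. Col11a1, a fibrillar collagen, read 1348, 2905, 3405, 610.1 and 538 with IWR-1 and 2329.5, 5504, 5918, 1098 and 1104 without it. Lines 8 and 11 were far below the others in both media, but the rise was 0.88 ± 0.063 (SE, n = 5 pairs; adjusted p = 6.9e-05, limma) with little spread between lines. Col8a1, a network-forming collagen, rose by 0.55 ± 0.062 and Col12a1 by 0.65 ± 0.11.

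The gene of the main fibrillar collagen, Col1a1, was higher in 5 of 5 lines by 0.32 ± 0.11 but did not pass the test (adjusted p = 0.14, limma). Col5a3 was the collagen that fell, by 0.37 ± 0.058 (adjusted p = 0.0043, limma). Lox, which crosslinks collagen and elastin, rose by 0.63 ± 0.076 (SE, n = 5 pairs; adjusted p = 0.00098, limma), and its relative Loxl1 by 0.25 ± 0.057, which was not called without line 1, 4 or 11. The elastic fibre genes Fbn2 and Fbln5 rose by 0.87 ± 0.10 and 0.52 ± 0.06. Thbs1, an activator of latent TGF-beta, rose by 0.75 ± 0.10 (SE, n = 5 pairs; adjusted p = 0.0015, limma), from 9688 to 36258 to 16033 to 70322. Without line 1, 4 or 11, 3 collagens were called higher in each case and 5 other matrix genes in each case.

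Spp1, the osteopontin gene, went the other way at a high level: it read 297350.0, 237713, 99526, 293982 and 267165 with IWR-1 and 202501, 119807, 44468, 253680.0 and 167409 without it. Line 4 was lowest in both media. The fall was 0.72 ± 0.14 (adjusted p = 0.012, limma) and was not called without line 4 or 11. Bovine SPP1, with group means of 226 and 477, rose by 1.27 ± 0.20 (adjusted p = 0.021, limma) in the same wells.

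Of 24 proteases and protease inhibitors, 5 fell and 2 rose (median -0.17), and 12 were lower in all 5 lines. Mmp13, a collagenase, read 14609, 9116, 5245, 15958 and 11718 with IWR-1 and 7909, 4381, 2782, 10163 and 5146 without it. Lines 1, 8 and 11 started highest, every line fell, and the change was -0.94 ± 0.076 (SE, n = 5 pairs; adjusted p = 0.00012, limma). Mmp12, an elastase, fell by 0.57 ± 0.063 (adjusted p = 0.00063) and Mmp19 by 0.55 ± 0.076 (adjusted p = 0.002, limma). Mmp9, a gelatinase, fell by 0.38 ± 0.069 and was not called without line 4 or 11. Without line 8 the number of proteases called lower was 9, and without line 4 or 11 it was 3.

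**Figure D3:**
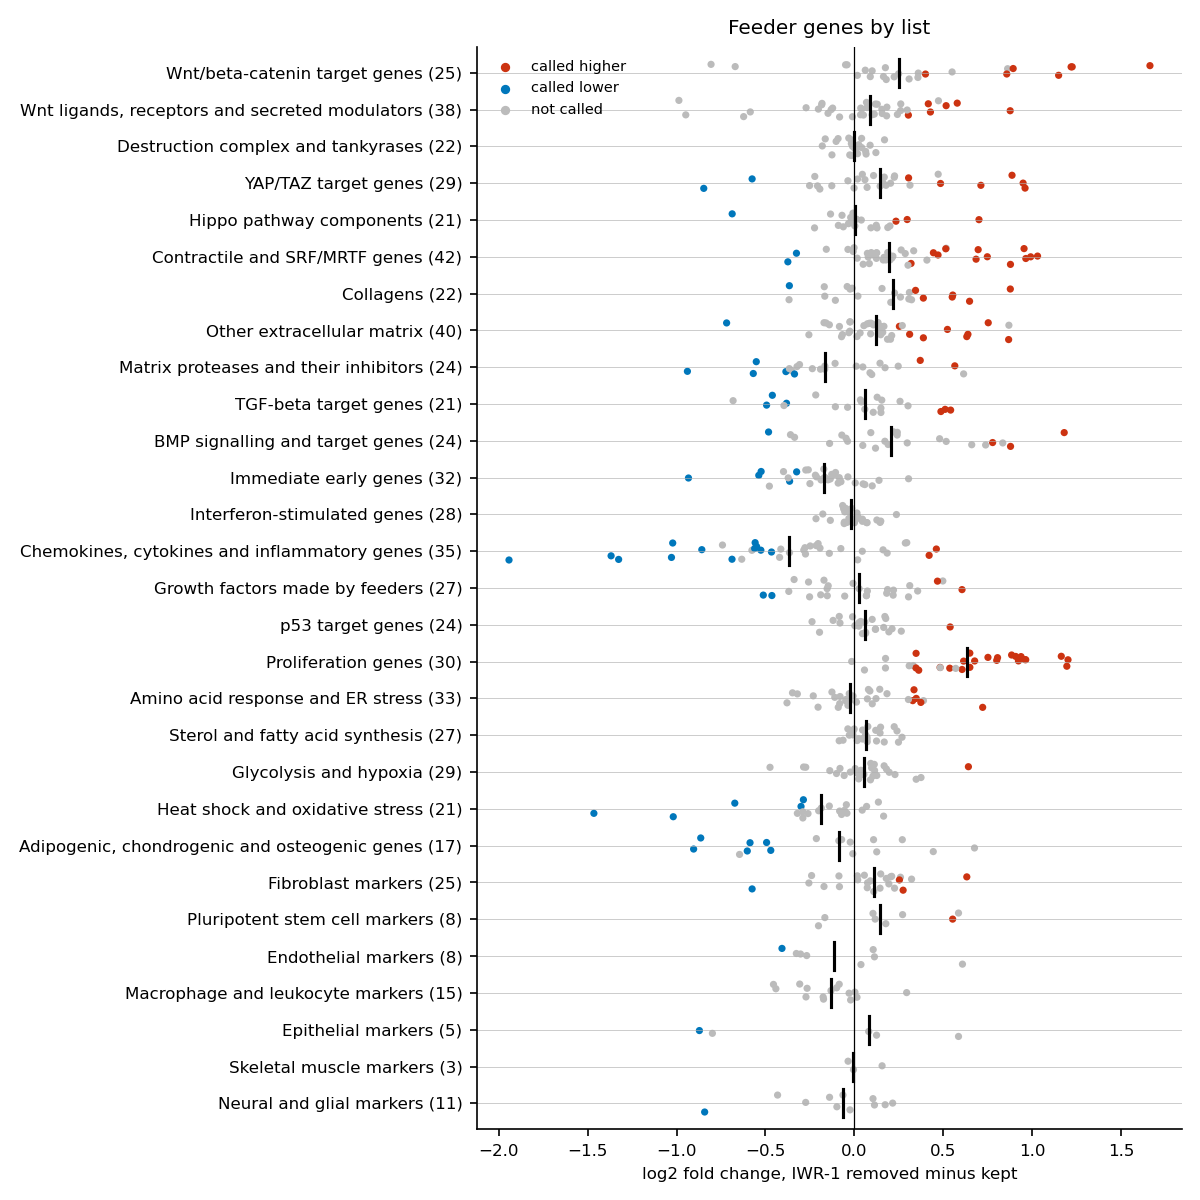
Log2 fold change (IWR-1 removed minus kept) of the tested members of each gene list, with their number in brackets; each point is 1 gene, red if called higher, blue if called lower and grey if not called, and the black bar is the median. The proliferation list lies to the right with a median of 0.63 and the chemokine and cytokine list to the left with -0.36, while the destruction complex and interferon lists have medians of -0.0034 and -0.021.

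BMP and TGF-beta genes split by member. Of 24 BMP ligands, antagonists and targets, 3 rose and 1 fell (median 0.21), where 2.14% of all tested genes rose and 2.05% fell. Gdf6, a BMP-family ligand of joint and skull development, read 116, 99.3, 107, 63.9 and 43.8 with IWR-1 and 194, 245, 300.3, 146 and 102 without it. The rise was 1.18 ± 0.14 (SE, n = 5 pairs; adjusted p = 0.00081, limma), with a range of 0.74 to 1.48 over the lines. Bmp4 rose by 0.88 ± 0.14 (adjusted p = 0.0046, limma), while Bmp2 fell by 0.48 ± 0.10 and was not called without line 1, 4 or 11. Fst, the follistatin gene, whose product binds activins, rose by 0.78 ± 0.12 (SE, n = 5 pairs; adjusted p = 0.0035, limma), with line 4 far above the others without IWR-1.

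Among 21 TGF-beta target and pathway genes, 3 rose and 3 fell (median 0.059), where 2.14% of all tested genes rose and 2.05% fell. In fits without line 1, 4 or 11, 1 was called higher and 1 lower in each case. The ligand genes moved in opposite directions: Tgfb1 fell by 0.46 ± 0.062 (adjusted p = 0.0018) and Tgfb3 rose by 0.54 ± 0.073 (adjusted p = 0.0018, limma). Tgif1, a repressor of SMAD signalling, fell by 0.38 ± 0.074 and was not called without line 1, 4 or 11. The activin subunit Inhbb rose by 0.47 ± 0.07 (adjusted p = 0.0031, limma).

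Many genes of secreted inflammatory factors fell. Of 35 chemokines, cytokines and inflammatory genes, 12 fell and 2 rose, and the median was -0.36. Cxcl2, a neutrophil chemokine, read 36, 17.7, 13.9, 776 and 551 with IWR-1 and 18.5, 1.22, 3, 347 and 86.4 without it. Lines 8 and 11 stood far above the other lines in both media, so the groups overlapped, while the fall within lines was 1.94 ± 0.30 on the log2 scale (n = 5 pairs; adjusted p = 0.0037, limma). Cxcl1, of the same family, fell by 1.03 ± 0.17 (adjusted p = 0.0045, limma). Tslp, an epithelial-type cytokine that acts on dendritic cells, read 1124, 459, 264, 1926 and 1003 with IWR-1 and 628, 124, 89.5, 1088 and 298 without it. Its fall was 1.37 ± 0.15 (adjusted p = 0.00063, limma).

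Lcn2, which encodes the iron-sequestering lipocalin 2, fell by 1.33 ± 0.20 (adjusted p = 0.0029, limma), between ranges of 15.1 to 6804 and 2.4 to 4510.5. The complement gene C3 fell by 0.56 ± 0.074 (adjusted p = 0.0016, limma). Lif, the leukaemia inhibitory factor that sustains mouse embryonic stem cells, fell from 415 to 2751 to 358 to 1461, by 0.56 ± 0.095 (adjusted p = 0.0062, limma). Ptgs2, the inducible prostaglandin synthase, fell by 0.47 ± 0.082. Vcam1, an adhesion molecule for leukocytes, was 1 of the 2 that rose, by 0.46 ± 0.063 (adjusted p = 0.0018, limma). Of 28 interferon-stimulated genes 0 were called by limma, edgeR or DESeq2 (median -0.021) and 1 had an unadjusted p under 0.05 (limma), where 4.19% of all tested genes were called. Tap1, the member with the smallest p, changed by 0.24 ± 0.079 (adjusted p = 0.14).

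Of 27 growth factor genes 2 rose and 2 fell (median 0.027), where 2.14% of all tested genes rose and 2.05% fell; without line 1, 4 or 11, 1 was called higher in each case. Ereg, which encodes an EGF receptor ligand, fell by 0.51 ± 0.076 (adjusted p = 0.003, limma), as Areg did. Hgf, the hepatocyte growth factor gene, fell by 0.46 ± 0.076 (adjusted p = 0.005, limma). Igf1 rose by 0.61 ± 0.13 but was not called without line 1, 4 or 11.

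Immediate early genes, which growth factors switch on within minutes, showed 5 falls and no rise among 32 (median -0.17), and 13 were lower in all 5 lines; without line 4 or 11, 3 were called lower in each case. Fos read 162, 199, 188, 159 and 123 with IWR-1 and 93.5, 76.6, 101, 109 and 57.9 without it. The groups did not overlap (0.296% of tested genes were lower in this way), and the fall was 0.93 ± 0.14 (n = 5 pairs; adjusted p = 0.0034, limma). Ier3 fell by 0.54 ± 0.083 (adjusted p = 0.0037, limma). Dusp1, a phosphatase that turns off MAP kinases, fell by 0.52 ± 0.10, also without overlap, and was not called without line 11. Egr1 fell by 0.36 ± 0.069 and was not called without line 4 or 11.

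Of 21 heat shock and oxidative stress genes, 5 fell and none rose (median -0.19). These were the metallothionein genes Mt1 and Mt2 and Nqo1, Srxn1 and Hmox1, which the oxidant-responsive factor NRF2 is known to induce. The metallothionein gene Mt2 read 1335, 770.5, 446, 1754 and 1157 with IWR-1 and 624, 119, 199, 1240.5 and 312 without it. Line 8 moved least, and the fall was 1.47 ± 0.23 (n = 5 pairs; adjusted p = 0.0039, limma). Its neighbour Mt1 fell by 1.02 ± 0.15 (adjusted p = 0.0025) and Nqo1 by 0.67 ± 0.10 (adjusted p = 0.0026, limma). Srxn1 fell by 0.29 ± 0.06 and Hmox1 by 0.30 ± 0.073; the first was not called without line 1, 4 or 11, and the second not without line 1, 2, 4 or 11. The list had 3 genes called lower in each fit that left out line 1, 4 or 11.

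Genes of serine and one-carbon metabolism and the asparagine synthetase gene Asns rose among the amino acid response genes. Of 33 amino acid response and ER stress genes, 5 rose and none fell (median -0.026); without line 1, 4 or 11 the number that rose was 2, 1 and 1. Phgdh, the first enzyme of serine synthesis, rose by 0.72 ± 0.077 (SE, n = 5 pairs; adjusted p = 0.00058, limma), from 291 to 780.3 to 512 to 1225, and its reads were 5.01% of the bovine ones. Psat1 and Shmt2, which act later in serine and one-carbon metabolism, rose by 0.35 ± 0.079 and 0.34 ± 0.073. The call for Psat1 was lost without line 1, 4 or 11, and that for Shmt2, with 6.61% of the bovine reads, without line 4 or 11. Mthfd2, a mitochondrial one-carbon enzyme, and Asns rose by 0.37 ± 0.09 and 0.33 ± 0.079; the first was not called without line 1, 4, 8 or 11, and the second not without line 1, 2, 4 or 11. Of 27 sterol and fatty acid synthesis genes 0 were called by limma or edgeR and 1 by DESeq2 (median 0.067; 5 at an unadjusted p under 0.05, limma), and Cyp51 had the smallest p (change 0.22 ± 0.059, adjusted p = 0.057). Of 29 glycolysis and hypoxia genes only Adm, the adrenomedullin gene, was called (3.45%, where 4.19% of all tested genes were called). Its rise was 0.64 ± 0.15, and it was not called without line 1, 4 or 11.

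Genes of the cell cycle rose at low levels. Of 30 proliferation genes, all tested, 22 rose and none fell, with a median of 0.63, and 24 were higher in all 5 lines. Ccna2, the cyclin A2 gene of S and G2 phase, read 47.3, 51.1, 86.8, 88.6 and 135 with IWR-1 and 116, 131, 196, 205 and 276 without it. Line 11 was highest in both media, and the rise was 1.20 ± 0.12 (SE, n = 5 pairs; adjusted p = 0.00047, limma). Mki67, the Ki-67 proliferation antigen, read 94.6, 110.1, 247, 248 and 384 with IWR-1 and 308, 477, 482, 316 and 632 without it. Lines 1 and 2 rose most and line 8 least, at 1.16 ± 0.21 (SE, n = 5 pairs; adjusted p = 0.0078, limma); without line 1 Mki67 was not called.

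Top2a and Rrm2, for DNA topology and nucleotide supply in S phase, rose by 0.96 ± 0.10 (adjusted p = 0.00059) and 0.81 ± 0.089 (adjusted p = 0.00063, limma). The mitotic genes Bub1b and Kif4 rose by 1.20 ± 0.27 and 1.35 ± 0.33, and neither was called without line 1, 4 or 11. Ckap2, a mitotic spindle gene on the p53 list, rose by 0.54 ± 0.076 (SE, n = 5 pairs, adjusted p = 0.0022, limma). It was the only call among 24 p53 target genes (4.17%), where 4.19% of all tested genes were called. Without line 1, 4 or 11, 13, 10 and 10 proliferation genes were called higher.

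The dividing bovine cells in the same wells hold these transcripts in large excess. Reads for the 30 proliferation genes in the mouse table were a median of 2.22% of those for the bovine genes, with a range of 0.369% to 26.9%, against a median of 0.139% for the stem cell markers above. Of the bovine genes 0 of the 30 were called by limma and the median change was 0.0052. Bovine CCNA2 read 7657, 6782, 7058, 6482 and 6699 with IWR-1 and 7703, 6917, 7253, 7350.0 and 6867 without it, while the mouse gene rose in each line. Bovine MKI67 varied more between media: it read 31193, 41159, 48208, 29951 and 41993 with IWR-1 and 36787, 61390.3, 44392, 19667 and 44859 without it. It was higher without IWR-1 in lines 1, 2 and 11 and lower in lines 4 and 8, with its greatest rise in line 2 and its greatest fall in line 8, the lines where mouse Mki67 rose most and least. Mouse Mki67 reads were 0.961% of the bovine ones. Bovine reads per mouse read rose within lines 1, 2, 4, 8 and 11 by 0.19, 0.32, 0.055, 0.34 and 0.46 on the log2 scale. As plain ratios, a different scale, the summed mouse proliferation genes rose 1.26, 1.40, 1.45, 1.32 and 1.40-fold in the same lines. No change is 0 on the first scale and 1 on the second, so the values cannot be compared number by number. The part of bovine reads in the mouse values was not otherwise tested.

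Genes of fat, cartilage and bone cells fell where they moved: 6 of 17 were called lower and none higher (median -0.087). Mgp, which inhibits calcification of matrix, read 5911, 9594, 2146, 737 and 2001 with IWR-1 and 4449, 3428, 937, 563 and 970.2 without it. The fall was 0.90 ± 0.14 (adjusted p = 0.0036, limma), and it was smallest in lines 1 and 8. The cartilage collagen Col2a1 fell by 0.60 ± 0.10 and the fatty acid transporter Cd36 by 0.59 ± 0.095 (adjusted p = 0.0044 and 0.0046, limma). Reads for mouse Col2a1 were 1.26% of those for the bovine gene, which changed by 0.39 ± 0.082.

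The genes of largest change reached beyond these groups. Cadps, which primes dense-core vesicles for release, had the largest rise among the genes named by size: it read 60.8, 62.9, 236, 12.4 and 17.9 with IWR-1 and 298, 234, 733, 41.1 and 64.8 without it. All lines rose by at least 1.63, and the mean was 1.85 ± 0.15 (SE, n = 5 pairs; adjusted p = 0.00012, limma). Lrrc17, a secreted leucine-rich repeat protein, read 379.7, 291, 939, 114 and 161 with IWR-1 and 885, 984, 2602, 403 and 495 without it, a change of 1.57 ± 0.10 (SE, n = 5 pairs; adjusted p = 2.7e-05, limma). Cavin2, a coat protein of caveolae, rose by 1.26 ± 0.11 (SE, n = 5 pairs; adjusted p = 0.0002, limma). Nell2, a secreted glycoprotein with 4.51% of the bovine reads, rose by 1.19 ± 0.20 (adjusted p = 0.0068, limma), and Hhip, an inhibitor of Hedgehog ligands, by 1.38 ± 0.30, a call lost without line 1 or 4.

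Among the 12 falls named by size, Tnxb, which encodes the matrix protein tenascin X, was the 1 whose groups did not overlap. Of all tested genes, 0.296% were lower in this way. Tnxb read 2124, 2150.2, 2661, 2275 and 1836 with IWR-1 and 1359.8, 1226, 767, 795 and 499.8 without it. The fall was 1.33 ± 0.16 (adjusted p = 0.00098, limma). Serpinb2, an inhibitor of plasminogen activators, fell by 1.38 ± 0.17 (adjusted p = 0.00098, limma). Nos2, the inducible nitric oxide synthase, fell by 1.29 ± 0.17 (adjusted p = 0.0015, limma), with line 8 at 2628 and line 4 at 22.9 with IWR-1. Dmp1, a matrix protein of bone, fell by 1.15 ± 0.19, Rab27b, a GTPase of vesicle secretion, by 1.20 ± 0.16, and the secreted glycoprotein gene Olfm4 by 1.16 ± 0.18. Stfa3, a stefin of the cystatin family, fell by 1.56 ± 0.29 and was not called without line 11. Another 4 IDs among the largest falls had no symbol assigned and are not named.

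**Figure D4:**
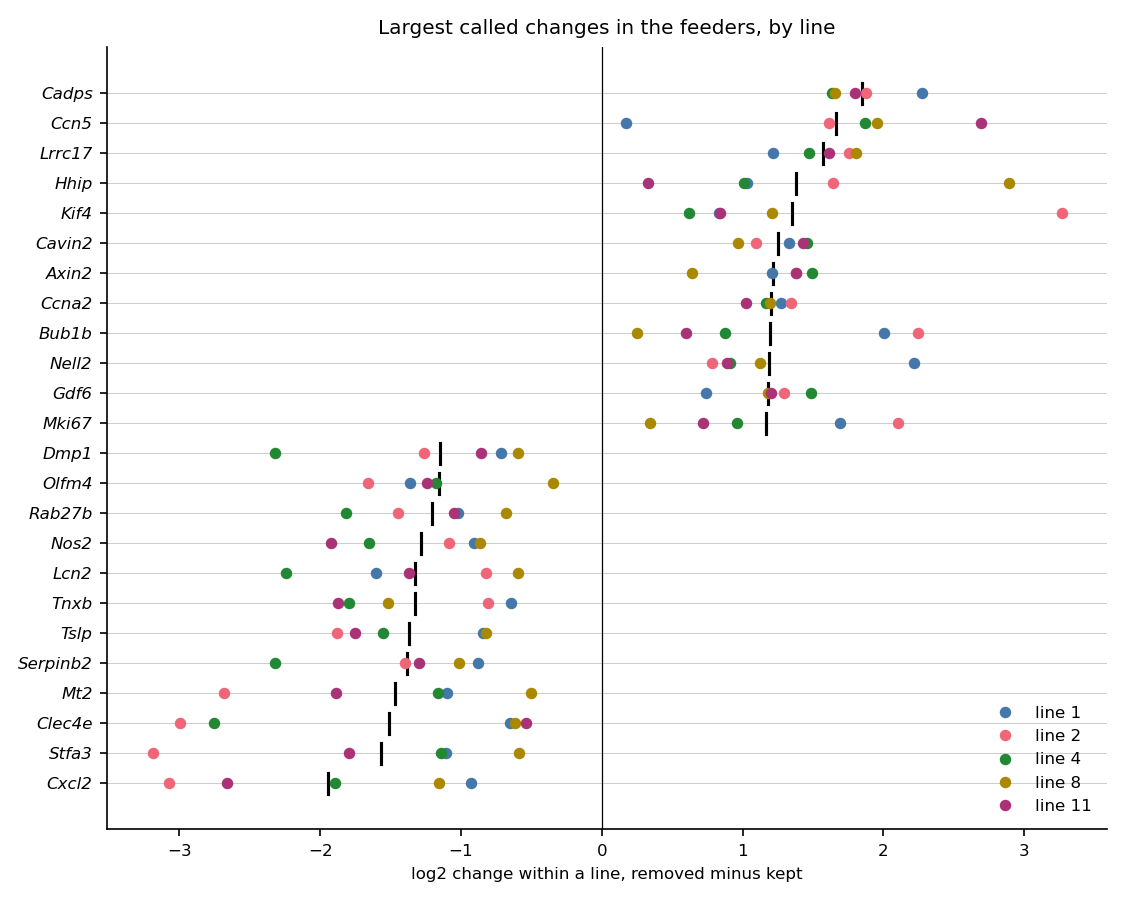
Log2 change within each of the 5 lines (IWR-1 removed minus kept) for 12 rises and 12 falls. They are the largest among called, named genes that moved alike in all 5 lines and averaged at least 50 scaled reads. Points are lines, coloured by line, and the black bar is the fitted mean. By this choice all points of a gene lie on the same side of 0. The 5 points of Ccna2 lie between 1.03 and 1.35 and those of Cavin2 between 0.96 and 1.46, while those of Kif4 reach from 0.62 to 3.27.

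Summed over each list, markers of other cell types read far less than the fibroblast markers, which summed to 1.23e+06 to 1.47e+06 scaled reads with IWR-1. Of 16 macrophage and leukocyte markers, 15 were tested, 0 were called by limma, edgeR or DESeq2 (5 at an unadjusted p under 0.05, limma) and 3 were positive and 12 negative (median -0.13). Their summed level was 6435 to 8609 with IWR-1 and 4227 to 8318 without it, lower in each of the 5 lines, by a factor of 0.97 in lines 1 and 8, 0.82 in line 4, 0.66 in line 11 and 0.58 in line 2. Most of that sum was Lyz2. The receptor gene Csf1r, which defines macrophages, differed by -0.029 ± 0.16, and Ptprc, of all leukocytes, by 0.015 ± 0.14. Both were chosen outside the naming rule and do not stand for the list, of which 12 of 15 tested members were negative. Clec4e, a receptor of activated macrophages, fell by 1.51 ± 0.38 but was not called without line 1, 2, 4 or 11. Cd14 changed by -0.44 ± 0.13 (adjusted p = 0.083, limma). The part of macrophages in the fall of the inflammatory genes was not tested.

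Of 14 endothelial markers 8 were tested and 1 fell, Cdh5, by 0.41 ± 0.07 (adjusted p = 0.0068, limma); their sum was 1855 to 3509 with IWR-1 and 1356 to 3060 without it. Of 14 epithelial markers 5 were tested and 1 fell, Krt18 (2.52% of the bovine reads), in 4 of 5 lines, by 0.87 ± 0.19, a call lost without line 4 or 11; the sum was 357 to 645 with IWR-1 and 279.6 to 641 without it. Of 14 neural and glial markers 11 were tested and 1 fell, Nefm, by 0.84 ± 0.16, not called without line 1, and the sum was 1819 to 3041 and 1668 to 2851. Krt5 and Krt14, which define basal epithelium, had group means of at most 1.34 scaled reads, and the muscle markers summed to 404 to 592 with IWR-1 and 421 to 577 without it.

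The bovine gene of the same symbol could be set beside 41 of the 47 named feeder genes that rose, and 12 of these bovine genes rose and none fell, while 0.951% of 18506 tested bovine genes were called. Of the 35 named feeder genes that fell, 23 had a tested bovine counterpart, of which 3 rose and none fell. Of 28 tested bovine YAP/TAZ target genes 7 rose, and of 42 contractile genes 8 rose, with no falls on either list. Bovine CCN2 rose by 0.78 ± 0.061, AMOTL2 by 0.54 ± 0.058, ANKRD1 by 1.92 ± 0.31, ACTA2 by 0.87 ± 0.087 and MYL9 by 0.51 ± 0.068. AXIN2 and NKD1 rose by 0.74 ± 0.13 and 1.39 ± 0.22. For genes that rose in both tables, reads that fit both genomes and separate responses of both species cannot be told apart from these values. Among the genes picked by the naming rule, the 3 bovine genes that rose while the feeder gene fell were TEAD4 (0.84 ± 0.10), KRT18 (0.96 ± 0.083) and NEFM (0.33 ± 0.064); SPP1, outside the rule, did so as well, as described above.

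**Figure D5:**
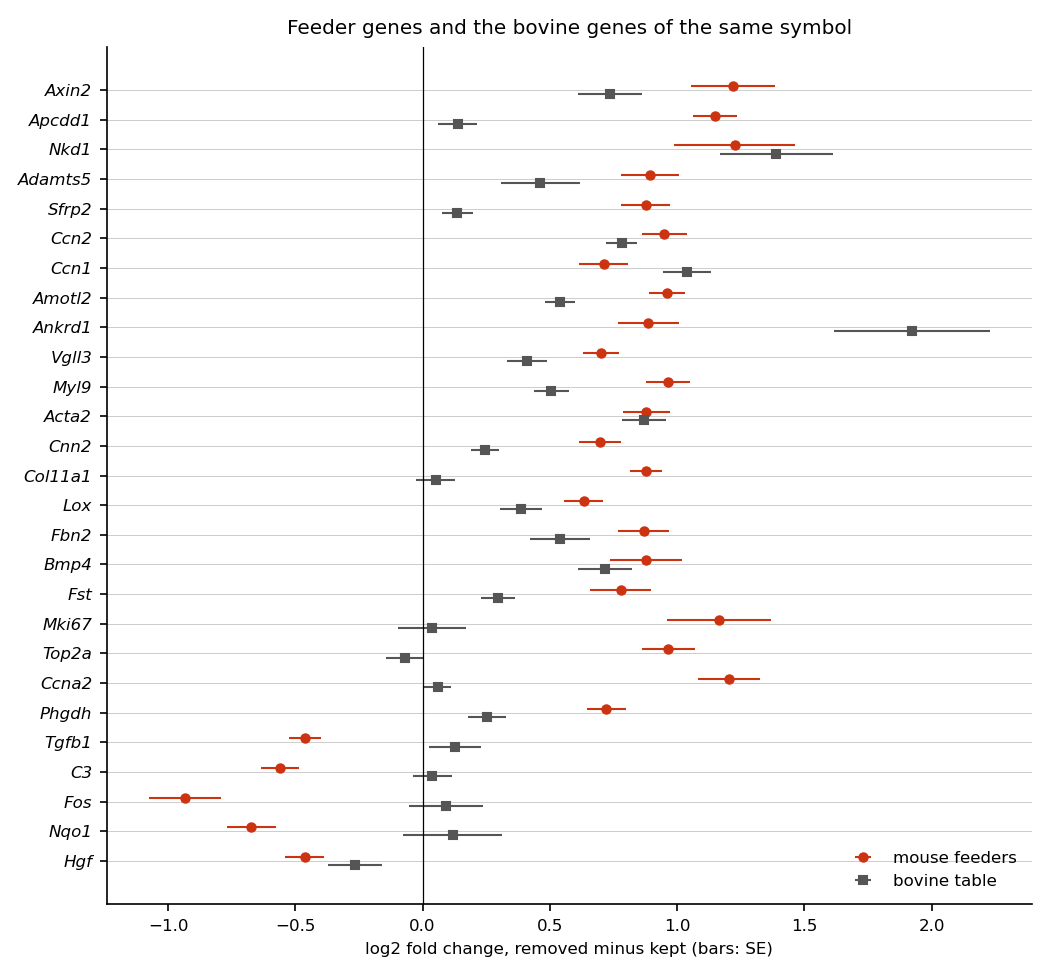
Log2 fold change (IWR-1 removed minus kept, bars SE) of feeder genes (red) and of the bovine genes of the same symbol in the same wells (grey squares). Ccn2, Acta2 and Bmp4 lie close together in both species, whereas Col11a1, Top2a, Ccna2 and Mki67 are raised in the feeders with the bovine value near 0.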

How the data were processed

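Poly(A) RNA of 10 co-cultures was sequenced after a NEBNext Ultra library preparation, per the labels' protocols. The reads were mapped to the bovine and mouse (GRCm39) genomes separately, per the labels; featureCounts 1.5.0-p3, HISAT2 2.0.5, fastp and StringTie 1.3.3b appear in the submitters' processing notes. The authors deposited 1 signal table per species. From the values alone, each deposited signal is a whole read count divided by 1 factor per library: 100% of the values came out whole at a tolerance of 0.01 reads. The mouse table also held 2 columns with no matching sample, which were not used; the factors may have been set with them.

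The design assumed that counts might be deposited; because the values are scaled, limma 3.58.1 (R 4.3.3) with an intensity trend was run on log2(value + 1), a pseudocount that understates changes of low genes, for genes that reached 10 in 5 or more libraries. Of 31349 mouse IDs 15871 passed. The fit had medium and line as terms; calls are Benjamini-Hochberg adjusted p-values under 0.05, and SEs are the moderated ones. Wells are paired by line number, since wells with the same number held 1 stem cell line, per the labels, and deviations from the group means correlated within lines at 0.488 to 0.725. The paired fit was made primary with it known that an unpaired fit calls 0 genes. With 1 well per line and medium, p-values measure the spread between lines, which includes that between wells. edgeR 4.0.16 and DESeq2 1.42.0 were run on the recovered reads. The test was checked on simulated data.

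The members, the 29 gene lists and the naming rule were chosen with earlier results of these data known. Files do not pair mouse IDs with names: 753 list symbols and 83 further symbols, the latter after the changed IDs had been seen, were assigned from memory of NCBI IDs with no table, and a wrong assignment would move a value to another gene. Of 836 assigned IDs, 529 occur in the Reactome sets; only those of genes named here were compared with their pathways. Genes on several lists count in each. The rule took, in each direction, the 12 largest changes among called genes that moved alike in 5 lines and averaged at least 50, from each list the 3 called genes of lowest p (or, with no call, the 1 of lowest p), and 17 preset genes. Other genes named, such as Fzd2, Cnn1, Thbs1, Spp1, Lif, Mmp9 and Bmp2, were chosen after their values were seen. Overlapping genes and near-identical copies may share reads. Bovine symbols come from a RefSeq table of ARS-UCD2.0, and no coordinates or sequences are given. Promoter motifs were not analysed here. The result for 1 gene picked by the rule is not reported here.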

Additional observations from a re-analysis of the deposited data

Results flagged for a closer look

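In groups of 5 wells, 9 of 188 groups of values checked had 1 well far from the other 4, its gap to the nearest exceeding 0.71 of the group's range (log2 values for genes); chance alone gives about 1 in 20. Line 4 accounted for 4 of them. Without IWR-1, its mouse share of reads was 41.4%, against 21.2% to 26.6% in the other lines. Apcdd1, the Wnt inhibitor, was highest there in both media, at 3395 scaled reads with IWR-1 (others 1786 to 1978) and 9892 without it (others 3309 to 4369). Fst, the follistatin gene, reached 1450.3 there without IWR-1, where the other lines read 481 to 584.

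Line 11 held 3 such values: Dkk3 was lowest there in both media, at 699 with IWR-1 (others 1238 to 1385) and 1024 without it (others 1675 to 2028), and the mitotic gene Bub1b was highest there without IWR-1, at 179.7 (others 92.5 to 107). Kif4 was lowest in line 1 without IWR-1, at 36.9 against 82.3 to 111. Cd36 was highest in line 8 without IWR-1, at 424 against 139.9 to 192.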

How the results depend on the processing

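Without the replicate block that pairs the wells by line, limma called 0 genes higher and 0 lower, all genes and listed genes alike, and edgeR without the block also called 0 and 0 (583 at an unadjusted p under 0.05); the unpaired exact permutation test of the mouse share gave p = 0.452. With the mouse share as a covariate the counts were 0 and 0. Without the filter on low values 169 genes rose and 160 fell, and 58 listed genes rose, against 91 (and 49 lower) as reported; without limma's trend 59 rose and 24 fell, with 24 and 3 listed genes. Leaving out 1 line gave 136 to 477 genes higher and 133 to 459 lower, and 53 to 100 listed genes higher and 31 to 73 lower; the mean difference of the mouse share ranged from -4.32 to -2.90 percentage points. Other pseudocounts, a higher filter, TMM scaling, and edgeR or DESeq2 with the block gave counts within 1.5 times. Of 92 named and tested genes, 91 kept their call or lack of one with edgeR and the block, and with TMM scaling all 92. Without limma's trend 35 did so and 57 lost their call, and without the filter on low values 15 lost it. Without the block, or with the mouse share as a covariate, 82 lost their call. No called gene changed direction in any setting; leaving out 1 line moved the uncalled Tnks between -0.13 (line 2) and 0.10 (line 8; 0.0052 without line 4), Lef1 between -0.11 and 0.031, and Tnnt3 between -0.0062 and 0.29. No median of all genes moved by 0.1. Depth limits genes near 10 scaled reads, where counting error is largest.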
